A study of Mus musculus with 36 samples.

Results

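The livers of mice fed a high-fat diet were compared with the livers of mice fed a low-fat diet, across all measured genes. HF livers came from mice kept on high-fat food for 18 weeks, and LF livers from mice kept on low-fat food for 18 weeks, with 6 RNA-seq libraries for each diet. These 12 libraries, picked by the tissue and diet in the labels, are part of a series of 36. All donors were wild-type C57BL/6 males of the F0 generation that ate chow up to 6 weeks of age, so that both groups were 24 weeks old at the end. A further liver group (HFLF, 6 libraries), given high-fat diet for 9 weeks and low-fat diet for the last 9 weeks, shared the estimate of the spread and is used below as a further set of values. The labels do not say that each library came from its own mouse, so that p-values measure the spread between these libraries, which may in part be technical. In bulk liver RNA, a change in the share of a cell type and a change in RNA per cell cannot be told apart.

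The genes of the deposited table held 11.7 to 20.3 M counts (M, 1000000) per HF library and 18.3 to 23.3 M per LF library. The means were 17.4 ± 3.33 M in HF and 19.7 ± 1.98 M in LF (SD, n = 6 each), a difference within the spread (exact two-sided permutation test, p = 0.18, where the smallest p that 6 against 6 allows is 0.00216). Levels are given in CPM, counts per M of the scaled library total, and compare one gene between libraries, not genes with each other. Changes are log2 fold changes of HF over LF ± SE. A gene is said to rise or fall where its adjusted p in edgeR's quasi-likelihood test, over all 14052 genes, was under 0.05. Positions are on GRCm38. The samples read as liver, since Alb (albumin) lay at 50386, 58724 and 63842 CPM in HF and at 58124, 68368 and 82283 CPM in LF (lowest, median and highest library). All 10 hepatocyte markers on the list were measured, and 4 fell while 1 rose, against 18.5% and 16.3% of all genes. No call was made among the 9 pancreas and 5 erythroid markers measured (edgeR).

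The liver takes up fatty acids, burns them in mitochondria and peroxisomes, stores them as triglyceride in lipid droplets and exports them in lipoproteins. A high-fat diet is known to load hepatocytes with lipid. The liver is also the main source of acute-phase proteins. On signals such as interleukin-6 and interleukin-1, hepatocytes raise serum amyloid A, haptoglobin, fibrinogen and the metal-binding metallothioneins, through the transcription factors STAT3 and NF-kB. Stress hormones and fasting act on an overlapping set of genes, among them Igfbp1 and Tat.

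The metallothionein genes Mt1 and Mt2 parted the LF libraries into sets that did not overlap, and their promoters are shown for that reason, from RefSeq's GRCm38.p6 windows of 250 bases before to 50 after the gene start. Metallothioneins bind zinc and copper, and the factor MTF1 is known to switch them on through metal response elements. Capitals mark each match, on either strand, to TGCNCNC (N, any base). This pattern is looser than the core of that element, so that a match need not be such an element. The windows are chr8:94172368-94172667 for Mt2 and chr8:94178839-94179138 for Mt1, both on the plus strand.
Mt2: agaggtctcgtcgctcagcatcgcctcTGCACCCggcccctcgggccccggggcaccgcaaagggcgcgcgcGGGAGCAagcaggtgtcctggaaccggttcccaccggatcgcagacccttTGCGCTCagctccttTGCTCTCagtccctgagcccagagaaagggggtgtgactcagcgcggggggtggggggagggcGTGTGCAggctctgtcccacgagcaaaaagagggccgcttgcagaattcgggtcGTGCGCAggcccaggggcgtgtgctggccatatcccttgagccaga
Mt1: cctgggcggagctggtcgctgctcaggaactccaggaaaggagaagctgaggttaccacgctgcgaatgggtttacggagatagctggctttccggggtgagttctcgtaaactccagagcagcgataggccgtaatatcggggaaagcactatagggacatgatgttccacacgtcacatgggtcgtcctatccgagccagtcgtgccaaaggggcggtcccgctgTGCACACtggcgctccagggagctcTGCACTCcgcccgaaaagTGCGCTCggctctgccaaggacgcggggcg
The motif matched at 6 places in the Mt2 window and at 3 places in the Mt1 window, while 51.0% of the 32851 windows in the table held at least 1 match. A match is a description of these letters and not of binding.

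The LF libraries did not share one state. Mt2 (chr8:94172664-94173568) lay at 1.63, 5.58 and 9.33 CPM in HF (lowest, median and highest library). For LF the values were 385, 422, 354 and 381 CPM for libraries 1 to 4, beside 2.04 and 0.892 CPM for libraries 5 and 6. LF libraries 1 to 4 were thus far above every HF library, and LF libraries 5 and 6 were near the low end of HF. The fit over all libraries called a fall (-5.63 ± 1.09, adjusted p = 0.00139), and without LF libraries 1 to 4 the sign turned (1.81 ± 0.70, adjusted p = 0.179). In the 6 HFLF libraries Mt2 spanned 0.601 to 2.22 CPM, a range that held both LF library 5 and LF library 6. Mt1 lay at 12 to 56.9 CPM in HF, with 812 to 1172 CPM in the first 4 LF libraries and 9.9 and 4.46 CPM in LF libraries 5 and 6 (-4.34 ± 0.97, adjusted p = 0.0033, and 2.19 ± 0.59 without LF libraries 1 to 4, adjusted p = 0.0705).

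The acute-phase proteins followed the same split. Saa1, serum amyloid A1 (chr7:46740497-46742980), lay at 38.3, 104 and 329.7 CPM in HF. LF libraries 1 to 4 held 1057, 1905, 3778 and 3081 CPM, while LF libraries 5 and 6 held 28.3 and 15.3 CPM. All 6 HF libraries were below the first 4 LF libraries and above the last 2. Lcn2, lipocalin 2, which binds bacterial iron carriers, lay at 4.17, 13.6 and 28.9 CPM in HF. LF libraries 1 to 4 held 50.5, 174, 305 and 222 CPM of it, while LF libraries 5 and 6 held 3.23 and 1.28 CPM. Both were called lower in HF over all libraries (Saa1 -3.71 ± 0.96, adjusted p = 0.00783; Lcn2 -3.06 ± 0.88, adjusted p = 0.0141). Without LF libraries 1 to 4 both had positive fold changes that did not pass (Saa1 2.53 ± 0.67, adjusted p = 0.0639; Lcn2 2.74 ± 0.68, adjusted p = 0.0535). The Lcn2 call also ended with limma voom and with the replicate number as a block. Saa1 and Saa2 are close paralogs, as are Mt1 and Mt2, so that reads may have been split between their members.

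The haptoglobin gene Hp was called in opposite directions by the fits with and without LF libraries 1 to 4. Its values were 3151, 3576 and 4308 CPM in HF, and 5226, 7534, 8966, 10658, 2493 and 2188 CPM in LF libraries 1 to 6. All HF libraries lay between LF libraries 1 to 4 above and LF libraries 5 and 6 below. The fall over all libraries was at the threshold (-0.76 ± 0.29, adjusted p = 0.0498) and ended with upper-quartile scaling and without any 1 of the HF libraries or of LF libraries 1 to 4, among other settings. Without all of LF libraries 1 to 4 Hp was higher in HF (0.64 ± 0.12, adjusted p = 0.0184). Those libraries were set aside for their acute-phase genes, so that for Hp and other such genes the direction in that fit follows in part from the choice of libraries and is given as a description. Hp was the only gene, of the 297 called without those libraries, that was called in the other direction over all libraries.

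**Figure D1:**
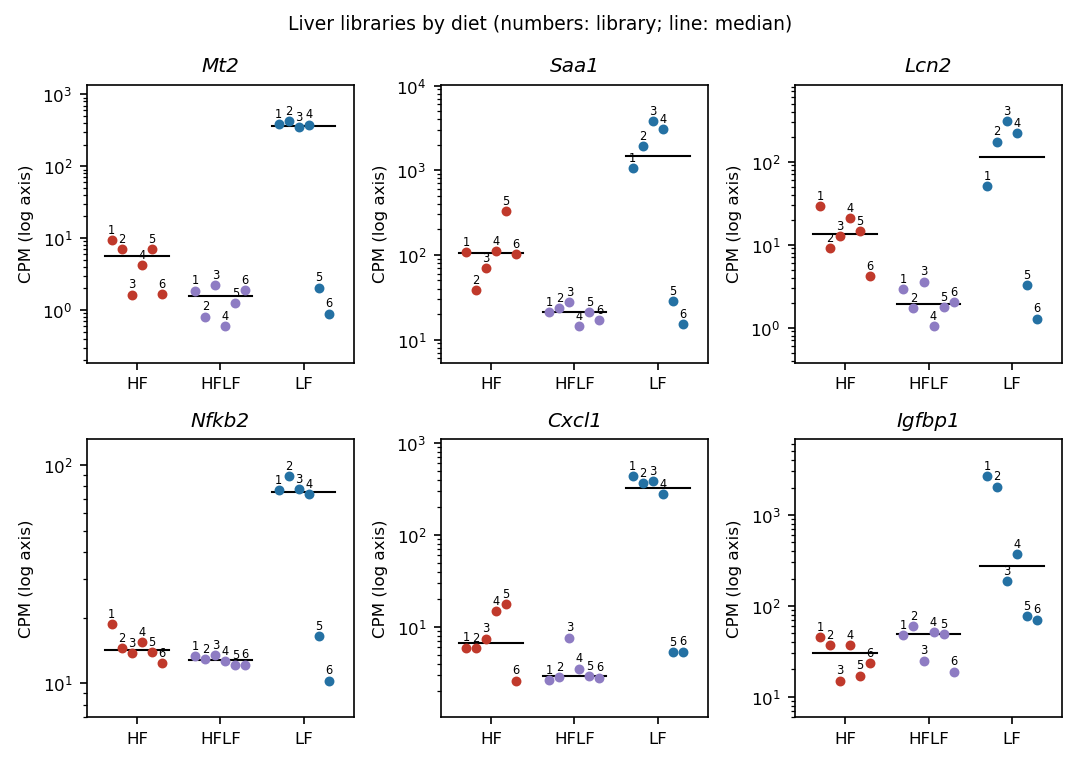
Levels in CPM on log axes for 6 genes in the liver libraries of the HF, HFLF and LF diets, each point 1 library with its number and each line the median of 6. LF libraries 1 to 4 stood above all HF and HFLF libraries for the first 5 genes, and for Igfbp1 LF libraries 1 and 2 stood highest, at 2672 and 2040 CPM.

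Some genes had their extreme values in LF libraries 1 and 2. Igfbp1, an insulin-repressed binding protein of insulin-like growth factors, lay at 15.1, 30.3 and 45.8 CPM in HF, and at 2672, 2040, 186, 368, 76.9 and 70.8 CPM in LF libraries 1 to 6. It fell in HF with no overlap (-4.94 ± 0.87, adjusted p = 0.000815), to a lesser degree without LF libraries 1 and 2 (-2.57, adjusted p = 0.00214), and did not pass without libraries 1 to 4 (-1.32, adjusted p = 0.11). Hspa1b, the inducible heat shock protein 70, lay at 3.48 to 11 CPM in HF, and at 100.4, 112, 6.62, 11, 8.71 and 39.7 CPM in LF libraries 1 to 6. Its fall was -2.98 ± 0.66 (adjusted p = 0.00324), -1.48 without LF libraries 1 and 2 (adjusted p = 0.0366), and -2.03 without libraries 1 to 4 (adjusted p = 0.053). Dbp, a transcription factor driven by the clock, was low there, with 2.56 and 5.15 CPM in these libraries, against 62.9 to 133 CPM in the other 4 LF libraries and 131 to 182 CPM in HF. It was not called over all libraries (1.39 ± 0.60, adjusted p = 0.0813) and rose without LF libraries 1 and 2 (0.83, adjusted p = 0.0112), without LF library 6 (1.78, adjusted p = 0.0238) and with limma voom (2.01, adjusted p = 0.0111). It overlaps Sphk2 on the other strand. The part of the time of day in these values was not tested.

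Over all genes, a principal component analysis of the 12 libraries put 44.9% of the variance on component 1. HF libraries scored 20.5 to 39.1, LF libraries 5 and 6 scored 5.2 and 1.8, LF libraries 3 and 4 scored -32.5 and -38.2, and LF libraries 1 and 2 scored -61.2 and -58.1. On this component LF libraries 5 and 6 lay between HF and the other LF libraries. On component 2 (13.4%) LF library 5 scored 3.8 and LF library 6 scored -21.3.

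With all libraries, 4891 of 14052 genes were called (34.8%), 2295 higher in HF (16.3%) and 2596 lower (18.5%). These shares are the background for the counts of called list members below. Upper-quartile scaling moved the split to 2952 higher and 1869 lower, with a median fold change over all genes of 0.07. Without LF libraries 1 to 4, the count of calls was 297 (2.11%), with 158 higher (1.12%) and 139 lower (0.989%). Without LF libraries 1 and 2 it was 2742 (19.5%), with 1245 higher (8.86%) and 1497 lower (10.7%). The fits also differ in power. On simulated counts, genes changed 2 times were called in 77.6% of cases with all libraries and in 52.2% without LF libraries 1 to 4. Both simulated fits had the spread of all 18 liver libraries. The spread left without LF libraries 1 to 4 was not simulated, so that the power of that fit may differ from this value. Of the 297 calls, 276 were also called over all libraries in the same direction, 20 were not called there, and Hp was turned. Of the 4891 calls, 177 had the opposite sign without LF libraries 1 to 4, and the median absolute log2 fold change of all 4891 was 0.293 in that fit, against 0.497 over all libraries.

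LF libraries 5 and 6 can also be placed gene by gene. Among the 2295 genes that rose, both lay below every HF library for 953 (41.5%) and both lay within the HF range for 451 (19.7%). Among the 2596 genes that fell, both lay above every HF library for 1090 (42.0%) and both lay within the HF range for 524 (20.2%). For the 9161 genes not called, both lay below HF in 4.41%, above HF in 4.27% and within the HF range in 52.3%. The calls used LF libraries 5 and 6, so that their place among called genes follows in part from the call and is a description. All 6 HF libraries were above all 6 LF libraries for 711 of the 14052 genes (5.06%) and below them for 828 (5.89%).

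**Figure D2:**
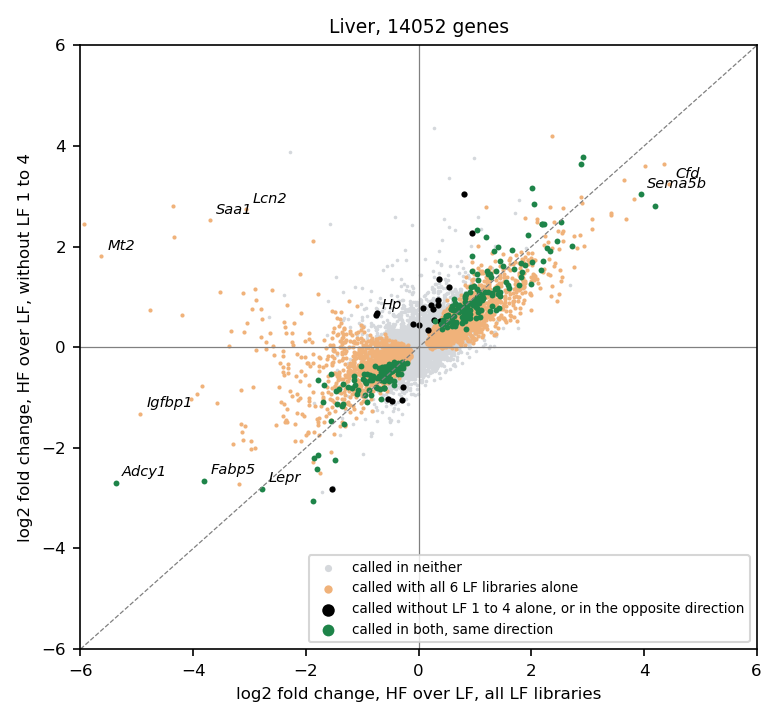
Each point is 1 of the 14052 liver genes, with the log2 fold change of HF over LF from all LF libraries on the x axis and without LF libraries 1 to 4 on the y axis; the dashed line marks equal values. The 276 genes called in the same direction in both fits lie, by definition, on the same side of 0 on both axes. Mt2, Saa1 and Lcn2 lie in the quadrant where the sign turned.

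Gene groups of the acute-phase state fell in HF over all libraries. Their values without LF libraries 1 to 4 are given as a description, since these genes set those libraries apart. In the list of acute-phase plasma proteins, 17 of 22 genes fell and 0 rose (median -1.02, against 0 over all genes tested), and without LF libraries 1 to 4, 1 rose and 0 fell (median 0.43, against 0.02). The summed level of the list was 12646 to 18123 CPM in HF and 24048 to 45240 CPM in LF libraries 1 to 4, while LF libraries 5 and 6 had 12763 and 11430.3 CPM. Of 15 NF-kB targets and chemokines, 13 fell and 0 rose (median -2.21), and 0 were called without LF libraries 1 to 4 (median 0.16). For both lists the background is 18.5% of all genes that fell and 16.3% that rose. Without LF libraries 1 to 4 it is 2.11% of all genes called. Cxcl1, a chemokine that draws neutrophils, fell (-4.77 ± 0.92, adjusted p = 0.00136). Its levels were 2.62 to 17.7 CPM in HF and 280.2 to 437 CPM in LF libraries 1 to 4, beside 5.32 and 5.41 CPM in the other 2. Nfkb2, an NF-kB subunit, fell as well (-1.95 ± 0.39, adjusted p = 0.00185), and so did Icam1, an adhesion receptor for leukocytes (-2.71 ± 0.55, adjusted p = 0.00186). Nfkb2 overlaps Psd and another gene on the opposite strand, and no source used here gives the strand of counting.

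STAT3 feedback and target genes fell for 9 of 14 members and rose for 0 (median -1.45), with 0 called without LF libraries 1 to 4 (median -0.24). The list counts of this paragraph are to be read against 18.5% of all genes that fell and 16.3% that rose. Without LF libraries 1 to 4, 2.11% of all genes were called, so that a short list may hold 0 calls. Bcl3, a nuclear partner of NF-kB subunits, fell (-2.40 ± 0.42, adjusted p = 0.000773), and Il1r1, the interleukin-1 receptor, fell (-2.08 ± 0.40, adjusted p = 0.00139). Immediate early genes fell for 15 of 19 members (median -1.24), a count that was 9 without LF library 1 or with limma voom, and 0 without LF libraries 1 to 4 (median -0.25). Junb, a subunit of AP-1 that overlaps Prdx2 on the other strand, fell (-2.17 ± 0.39, adjusted p = 0.000909), by less without LF libraries 1 and 2 (-1.44, adjusted p = 0.00493). Of 16 genes induced by glucocorticoids, 9 fell and 0 rose (median -0.83), and 0 were called without LF libraries 1 to 4 (median -0.39). The genes that fell include Mt1, Mt2 and Lcn2, which set LF libraries 1 to 4 apart. The 7 not called were Fkbp5 (0.27), Tsc22d3 (0.05), Per1 (-0.58), Zbtb16 (-0.72), Klf9 (-0.21), Cdkn1a (-1.6) and Gadd45a (-0.2). A part of glucocorticoids in these falls was not tested. Tat, tyrosine aminotransferase, lay at 602 to 1480 CPM in HF and at 1061 to 5057 CPM in LF, and fell (-1.72 ± 0.32, adjusted p = 0.00118), with LF library 5 inside the HF range. Of the 12 neutrophil markers listed 3 were in the table, which keeps genes by their CPM, so that low genes could enter through the libraries where they were high. The calls of these 3 (all lower in HF) are therefore a description. They summed to 2.5 to 5.01 CPM in HF, with 11 to 21.1 CPM in LF libraries 1 to 4, while LF libraries 5 and 6 had 5.43 and 2.34 CPM. Their part in the other changes was not tested.

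Fibrinogen was an acute-phase group in which LF libraries 5 and 6 kept to their diet's side. Fga, the fibrinogen alpha chain (chr3:83026076-83033627), lay at 3099.5, 3748 and 5030.5 CPM in HF, and at 10492.5, 11146, 12901, 12836, 6849 and 5107 CPM in LF libraries 1 to 6. The groups did not overlap, although LF library 6 lay close above the highest HF library. The fall was -1.37 ± 0.19 over all libraries and -0.64 ± 0.17 without LF libraries 1 to 4 (adjusted p = 0.0618). Fgg, the gamma chain, gave -1.29 ± 0.18 (adjusted p = 0.000152) and -0.60 ± 0.17 (adjusted p = 0.0715) in these fits. Crp, C-reactive protein, which is no strong acute-phase protein in mice, fell over all libraries (-0.74 ± 0.12, adjusted p = 0.000486) and did not pass without LF libraries 1 to 4 (-0.49 ± 0.14, adjusted p = 0.0721). In the wider lists, 8 of 22 coagulation genes (5 with upper-quartile scaling, where 2 rose) and 10 of 24 complement genes (6 in a fit of the 12 libraries alone) fell, 0 rose, and 0 were called without LF libraries 1 to 4. Over all genes 18.5% fell.

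Genes of the cytosolic ribosome fell together by small amounts, and this held in LF libraries 5 and 6. Of 58 ribosomal protein genes, 55 fell and 0 rose (median -0.44), and for 51 of them every HF library was below every LF library, against 5.89% of all genes. With upper-quartile scaling 52 fell. Without LF libraries 1 to 4 the median was -0.36, and 9 were still called lower, against 0.989% of all genes. Rps3, a protein of the small subunit (chr7:99477896-99483738), lay at 204, 225 and 245 CPM in HF and at 287, 302 and 321 CPM in LF (lowest, median and highest). The groups did not overlap, and LF library 5, at 287 CPM, was the lowest of LF. Its fall was -0.42 ± 0.07 over all libraries (adjusted p = 0.000312) and -0.43 ± 0.10 without LF libraries 1 to 4 (adjusted p = 0.0386). Rpsa, the laminin receptor protein of the small subunit, gave -0.62 ± 0.09 and -0.48 ± 0.12 in these fits. Many processed copies of ribosomal protein genes lie in the genome, and reads may have been shared with them. Of 31 genes of ribosome biogenesis and translation factors, 24 fell and 0 rose (median -0.34), and 1 fell without LF libraries 1 to 4, which was Gnl3, nucleostemin (-0.66 ± 0.16, adjusted p = 0.0448). It overlaps Pbrm1 on the other strand.

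Chaperone genes fell in both compartments. Of 19 heat shock chaperones, 16 fell and 0 rose (median -0.81), against 18.5% and 16.3% of all genes. Without LF libraries 1 to 4, 3 still fell (median -0.46), against 0.989% of all genes. Hspa8, the constitutive heat shock protein 70 (chr9:40800984-40810087), lay at 414, 475 and 627 CPM in HF and at 686, 961 and 1194 CPM in LF, with no overlap. The fold change was -0.95 in both fits (SE 0.15 and 0.16, adjusted p = 0.00027 and 0.0131). Bag3, a partner of heat shock protein 70, fell (-1.18 ± 0.17, and -0.80 ± 0.17 without LF libraries 1 to 4, adjusted p = 0.0299). Chordc1, a partner of heat shock protein 90, fell over all libraries (-0.88 ± 0.15, adjusted p = 0.000601). Its value without LF libraries 1 to 4 was -0.80 ± 0.21 (adjusted p = 0.0605). Its promoter window (chr9:18292017-18292316, plus strand, RefSeq GRCm38.p6) is shown because it held the heat shock element, searched on both strands as GAA, TTC and GAA with NN between them, at 3 overlapping places, in capitals.
Chordc1: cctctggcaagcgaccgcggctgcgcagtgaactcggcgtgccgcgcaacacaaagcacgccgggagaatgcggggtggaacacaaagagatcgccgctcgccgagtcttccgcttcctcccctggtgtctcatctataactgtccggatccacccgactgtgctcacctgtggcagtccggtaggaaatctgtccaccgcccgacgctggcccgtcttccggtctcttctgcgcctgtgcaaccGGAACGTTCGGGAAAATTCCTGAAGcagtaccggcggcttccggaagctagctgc
This motif was present in 0.597% of all windows, and in windows of 4 of the 15 heat shock chaperones that had one.

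Of 24 genes of protein folding in the endoplasmic reticulum, 21 fell and 0 rose (median -0.58), 16 with upper-quartile scaling, and 0 were called without LF libraries 1 to 4 (median -0.41). Hspa5, the main chaperone of that compartment, lay at 495, 653 and 1108 CPM in HF and at 1195, 1370.4 and 2151 CPM in LF. The groups did not overlap, and HF library 3 was the highest of HF. Its change was -1.11 ± 0.22 (adjusted p = 0.00147), and -0.79 ± 0.29 without LF libraries 1 to 4 (adjusted p = 0.164). Xbp1, a transcription factor of the unfolded protein response, fell over all libraries (-1.07 ± 0.18, adjusted p = 0.000446) and did not pass without LF libraries 1 to 4 (-0.71, adjusted p = 0.11). In the list of the integrated stress response 5 of 18 genes fell and 2 rose, against 18.5% and 16.3% of all genes. There were 8 lower without LF library 5 or LF library 6, each alone. Cebpg, a bZIP factor that pairs with ATF4, was the member that also fell without LF libraries 1 to 4. It lay at 61.8 to 79.5 CPM in HF and at 101 to 119 CPM in LF, without overlap (-0.66 ± 0.08, and -0.65 ± 0.11 without LF libraries 1 to 4, adjusted p = 0.00953).

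**Figure D3:**
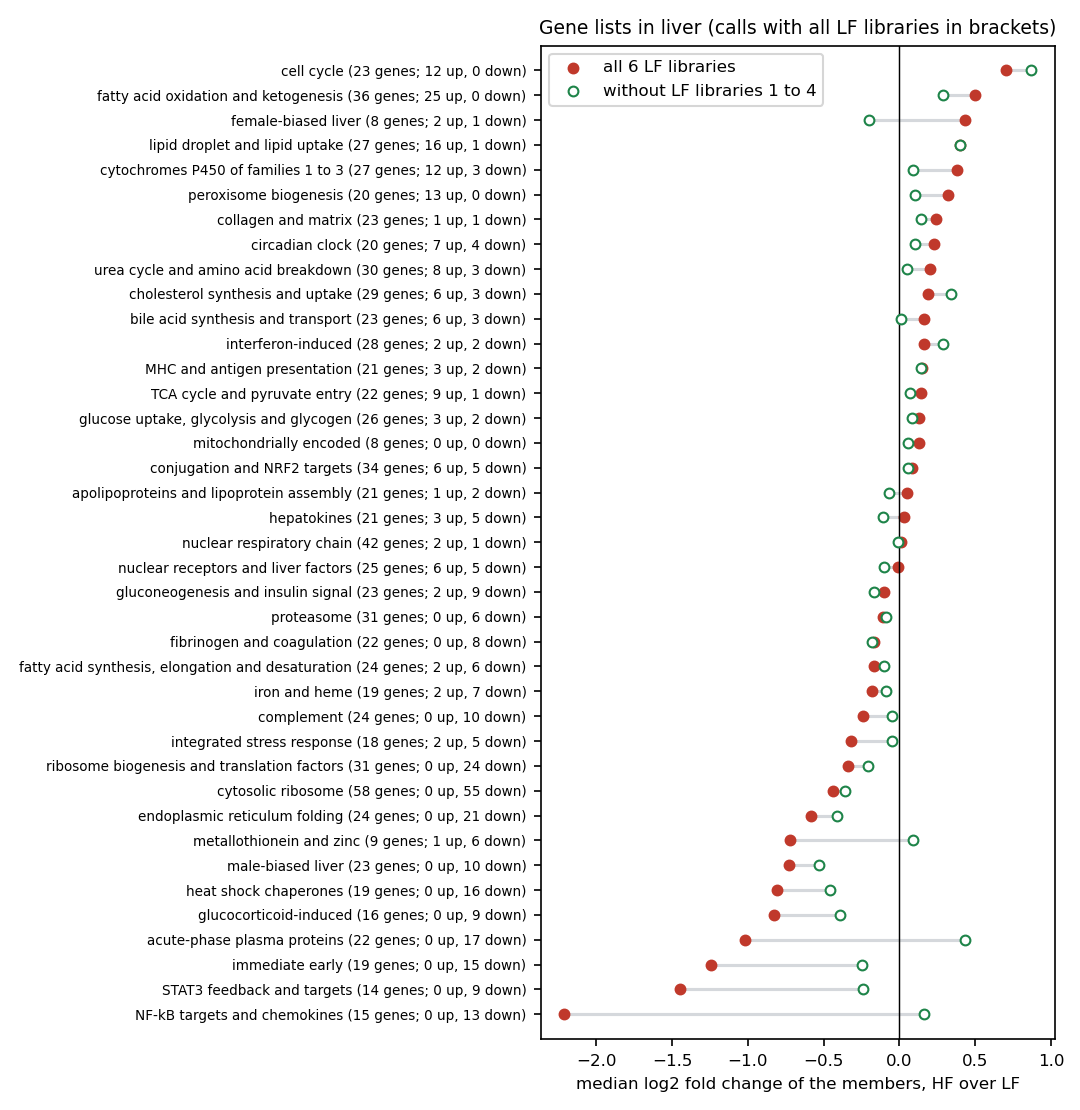
Median log2 fold change of HF over LF for 39 gene lists, over all LF libraries (filled) and without LF libraries 1 to 4 (open), with the number of measured genes and of calls over all libraries beside each name. The median of the NF-kB targets was -2.21 with all LF libraries and 0.16 without 4 of them, while that of the cytosolic ribosome was -0.44 and -0.36.

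Genes that burn fatty acids rose over all libraries. Of 36 genes of fatty acid oxidation and ketogenesis, 25 rose and 0 fell (median 0.50), against 16.3% of all genes that rose. Without LF libraries 1 to 4, 0 were called and the median was 0.29. Hadh, which acts in mitochondrial beta-oxidation (chr3:131233419-131272101), lay at 337, 487.5 and 535 CPM in HF and at 191.5, 212.5 and 312 CPM in LF, with no overlap. LF libraries 5 and 6 (312 and 306 CPM) were the highest of LF, and HF libraries 5 and 6 (337 and 394 CPM) were the lowest of HF. The rise was 0.92 ± 0.13 over all libraries (adjusted p = 0.000158), and the value without LF libraries 1 to 4 was 0.57 ± 0.15 (adjusted p = 0.0626). Bdh1, which makes the ketone body beta-hydroxybutyrate, rose by 0.86 ± 0.13 over all libraries, with LF library 6 inside the HF range, and by 0.48 ± 0.13 without LF libraries 1 to 4, where it did not pass (adjusted p = 0.0634). Of 20 peroxisome genes 13 rose and 0 fell (median 0.32), and without LF libraries 1 to 4 only Pex16, which recruits membrane proteins to peroxisomes, was called of this list (0.46 ± 0.11, adjusted p = 0.0411). Pex16 overlaps Large2 on the other strand. Aldh3a2, which oxidises long-chain fatty aldehydes, lay at 394 to 828 CPM in HF and at 101 to 312 CPM in LF, and rose (1.69 ± 0.25, adjusted p = 0.000244), with 1.15 ± 0.29 without LF libraries 1 to 4 (adjusted p = 0.0553).

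In the list of pyruvate entry and the TCA cycle 9 of 22 genes rose and 1 fell (median 0.14), against 16.3% and 18.5% of all genes. Pdk2, a kinase that shuts the pyruvate dehydrogenase complex, rose (0.80 ± 0.14, adjusted p = 0.000575) with no overlap between the groups, and Mpc1, a subunit of the mitochondrial pyruvate carrier, rose (0.70 ± 0.13, adjusted p = 0.00071). Neither passed without LF libraries 1 to 4 (Pdk2 0.46 ± 0.15, adjusted p = 0.11; Mpc1 0.45 ± 0.17, adjusted p = 0.164). Mpc1 and Bdh1 each overlap a predicted gene on the other strand. Of 42 nuclear genes of the respiratory chain 2 rose and 1 fell (median 0.01), and of 8 mitochondrially encoded genes 0 were called. With upper-quartile scaling, 5 of the nuclear respiratory genes rose, and 0 without LF library 2.

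Lipid storage and uptake genes rose, with a wide spread within HF. Of 27 genes of lipid droplets and lipid uptake 16 rose and 1 fell (median 0.40), against 16.3% and 18.5% of all genes. Without LF libraries 1 to 4 the median was also 0.40, with 1 higher and 1 lower, against 1.12% and 0.989% of all genes. Cd36, a fatty acid transporter (chr5:17781690-17888801), lay at 212, 108, 99.0, 132, 30.0 and 33.1 CPM in HF libraries 1 to 6, and at 9.02, 15 and 35.1 CPM in LF (lowest, median and highest). HF libraries 5 and 6 lay below LF library 5 and above the other LF libraries, and the remaining 4 HF libraries lay above all of LF. The rise over all libraries was 2.56 ± 0.47 (adjusted p = 0.00109), and the value without LF libraries 1 to 4 was 2.11 ± 0.75 (adjusted p = 0.147). Cfd, adipsin, a complement protease known from adipocytes, was the largest rise of the named genes (4.44 ± 1.04, adjusted p = 0.00436), but did not pass with limma voom (4.88, adjusted p = 0.0931) or without LF libraries 1 to 4 (3.25, adjusted p = 0.256). It lay at 28.4, 4.59, 21.8, 75.7, 1.39 and 1.49 CPM in HF libraries 1 to 6, and at 4.52 CPM in LF library 5 against 0.167 to 0.512 CPM in the other 5 LF libraries. The table keeps genes by their CPM, so that Cfd could enter it through the libraries where it was high. Cidec, a lipid droplet protein, lay at 5.63 to 142.5 CPM in HF and at 5.35 to 14.2 CPM in LF, and its call (2.17 ± 0.64, adjusted p = 0.016) ended without HF library 1 (1.36, adjusted p = 0.065), with limma voom and with the replicate number as a block.

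Among the 5 adipocyte markers measured, 4 rose (2 without HF library 1 or with limma voom), against a background of 16.3%. Adipoq, Plin1, Lep and Retn, which define adipocytes, were not among the measured genes. Because low genes such as Cfd could enter the table through the libraries where they were high, the count of these markers is a description. The summed level of the 5 markers was 238, 70.7, 96.9, 219, 59.1 and 68.3 CPM in HF libraries 1 to 6 and 33.9 to 52.4 CPM in LF. Lipe, hormone-sensitive lipase, was the member that also rose without LF libraries 1 to 4. It lay at 27.1, 31.1 and 38.6 CPM in HF and at 12.3, 15.7 and 17.7 CPM in LF with no overlap (1.07 ± 0.10 in the fit of all libraries and 1.10 ± 0.14 in the other, adjusted p = 0.00259). It overlaps a gene on the other strand.

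**Figure D4:**
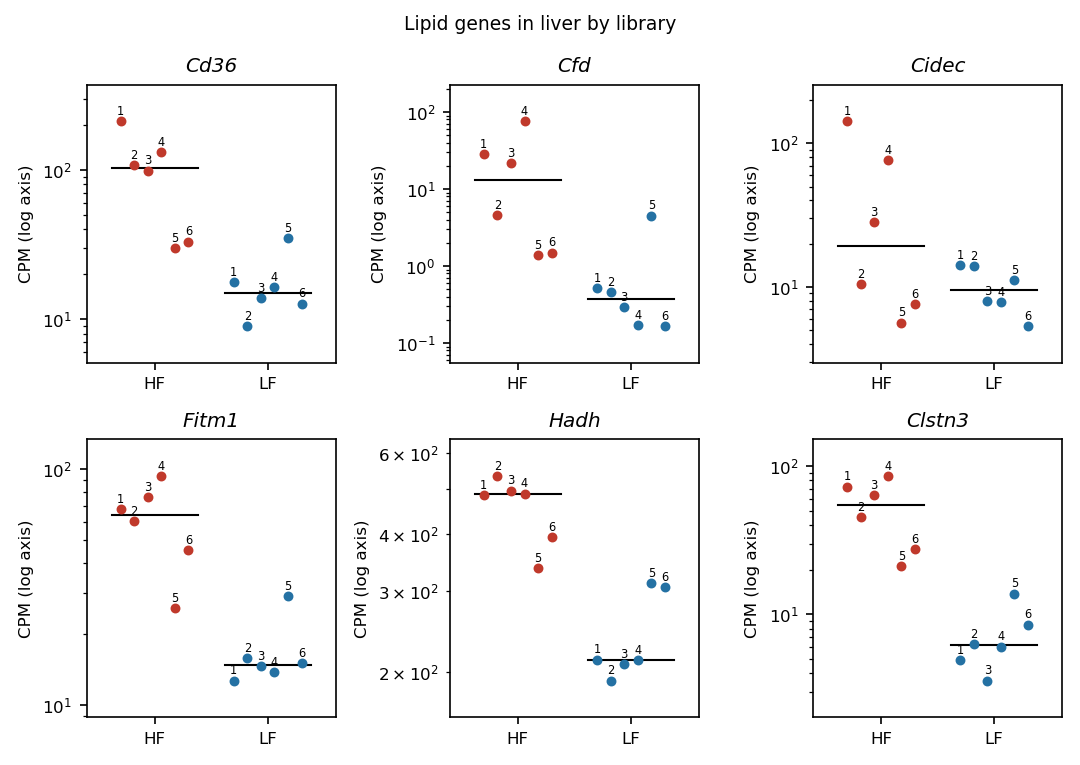
Levels in CPM on log axes for 6 lipid genes in the 6 HF and 6 LF liver libraries, each point 1 library with its number and each line the median of 6. HF libraries 5 and 6 were the lowest 2 of HF for Cd36, Cfd, Cidec, Fitm1, Hadh and Clstn3, and LF library 5 was the highest of LF for Cd36, Cfd, Fitm1, Hadh and Clstn3.

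This order within HF was not that of a few genes. HF libraries 5 and 6 were the lowest 2 of the HF libraries for 537 of the 2295 genes that rose (23.4%), while HF libraries 1 and 2 were so for 86 (3.75%) and HF libraries 3 and 4 for 127 (5.53%). HF libraries 5 and 6 were the highest 2 of HF for 536 of the 2596 genes that fell (20.6%). Over all 14052 genes they were the lowest 2 for 10.7% and the highest 2 for 12.5%. HF library 5 was also the one with the fewest counts, 11.7 M. Clstn3, a calsyntenin with an isoform known from fat cells, rose (2.87 ± 0.39, adjusted p = 0.000147), and did not pass without LF libraries 1 to 4 (2.24, adjusted p = 0.0541). It lay at 72.7, 45.3, 63.3, 85.5, 21.2 and 27.5 CPM in HF libraries 1 to 6 and at 3.57 to 13.8 CPM in LF. Fitm1, a protein of lipid droplet formation, lay at 25.8 CPM in HF library 5 and 45.3 CPM in HF library 6, against 60.3 to 93.5 CPM in the other 4 HF libraries and 12.7 to 29 CPM in LF (1.87 ± 0.33, adjusted p = 0.000769, and 1.48 without LF libraries 1 to 4, adjusted p = 0.141). It overlaps a predicted gene on the other strand.

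Lipogenic and sterol lists are to be read against the calls among all genes (16.3% higher, 18.5% lower), and 0 members of either were called without LF libraries 1 to 4. Of 24 genes of fatty acid synthesis, elongation and desaturation 6 fell and 2 rose (median -0.17), with 3 lower without LF library 1, without HF library 2 or in a fit of the 12 libraries alone. Scd1, stearoyl-CoA desaturase, had 16292 CPM in HF library 1 against 2431 to 6155 CPM in the other 5 HF libraries, and lay at 7674, 12004 and 18904 CPM in LF. Its call (-1.10 ± 0.37, adjusted p = 0.0294) ended without LF library 1 or 2, without HF library 2, 3, 4 or 5 and in a fit of the 12 libraries alone, and its fall was larger without HF library 1 (-1.67, adjusted p = 0.000518). Fasn, fatty acid synthase, lay at 629.6 to 1788 CPM in HF and at 886 to 1680.3 CPM in LF and was not called (-0.36 ± 0.26, adjusted p = 0.303). In the list of cholesterol synthesis and uptake 6 of 29 genes rose and 3 fell (3 higher without LF library 1, LF library 2 or HF library 1, each alone, or with limma voom).

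In bile acid synthesis and transport 6 of 23 genes rose and 3 fell (median 0.16), against 16.3% and 18.5% of all genes. Cyp8b1, which adds the hydroxyl group that makes cholic acid (chr9:121914356-121916305), lay at 286, 463 and 545 CPM in HF and at 185, 201 and 259.5 CPM in LF, with no overlap. It rose in both fits (1.12 ± 0.14, and 1.03 ± 0.22 without LF libraries 1 to 4, adjusted p = 0.0315). Abcb11, the bile salt export pump (chr2:69238282-69342616), lay at 357, 441 and 525 CPM in HF and at 618, 661.5 and 899 CPM in LF, again with no overlap. It fell in both fits (-0.70 ± 0.12 and -0.58 ± 0.14, adjusted p = 0.0427 without LF libraries 1 to 4). Cyp7a1, which starts the classical route of bile acid synthesis, lay at 20 to 142 CPM in HF and at 10.2 to 87.3 CPM in LF. It was not called (1.18 ± 0.63, adjusted p = 0.159), and without LF library 5 it was (1.90, adjusted p = 0.0133).

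In gluconeogenesis and the insulin signal 9 of 23 genes fell and 2 rose (median -0.10), against 18.5% and 16.3% of all genes. Pck1, the gluconeogenic enzyme that makes phosphoenolpyruvate, lay at 1905, 3090.2 and 3738 CPM in HF and at 3953, 5114.5 and 5759 CPM in LF. The groups did not overlap, and the fall was -0.81 ± 0.21 (adjusted p = 0.00648), with -0.65 ± 0.31 without LF libraries 1 to 4 (adjusted p = 0.268). Irs2, an adapter of the insulin receptor that insulin represses, lay at 18.9 to 36.9 CPM in HF and at 139.9, 139, 61.4, 56.9, 43.9 and 40 CPM in LF libraries 1 to 6, without overlap. Its fall was smaller with LF libraries left out, being -1.67 ± 0.29 in full (adjusted p = 0.000706), -1.01 without libraries 1 and 2 and -0.74 ± 0.18 without libraries 1 to 4 (adjusted p = 0.0436). Sik1, a kinase induced by cAMP, fell over all libraries (-2.28 ± 0.42, adjusted p = 0.00114), while LF library 5 lay within the HF range (-0.86 without LF libraries 1 to 4, adjusted p = 0.268).

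The hepatocyte transcription factors Hnf4a and Foxa3 fell in HF. Hnf4a, a nuclear receptor that sustains hepatocyte genes (chr2:163506808-163572910), lay at 661, 765 and 856 CPM in HF and at 1108, 1195 and 1308 CPM in LF. The groups did not overlap, and the 6 LF libraries lay close to each other. It fell in both fits (-0.66 ± 0.10, adjusted p = 0.000263, and -0.60 ± 0.15 without LF libraries 1 to 4, adjusted p = 0.0486). Foxa3, a forkhead factor of liver, lay at 44, 60.9 and 82.1 CPM in HF and at 103, 145.5 and 177 CPM in LF, and fell in both fits (-1.25 ± 0.16 and -0.79 ± 0.18). In the list of nuclear receptors and liver factors that holds them, 6 of 25 genes rose and 5 fell (median -0.01). Over all genes 16.3% rose and 18.5% fell. Nr1i3, the receptor CAR that drives drug metabolism, lay at 125 to 255 CPM in HF and at 18.8, 16.9, 31.1, 40, 50.9 and 69.5 CPM in LF libraries 1 to 6. It rose over all libraries (2.05 ± 0.35, adjusted p = 0.000609), with 1.39 ± 0.40 without LF libraries 1 to 4 (adjusted p = 0.0849), and shares exon sequence with Tomm40l on the other strand. Among cytochromes P450 of families 1 to 3, 12 of 27 genes rose and 3 fell (median 0.38), and 0 were called without LF libraries 1 to 4 (median 0.09). Cyp3a25 (1.06 ± 0.18, adjusted p = 0.00049) and Cyp2e1, which oxidises ethanol (0.73 ± 0.18, adjusted p = 0.00546), rose over all libraries, and neither passed without LF libraries 1 to 4 (Cyp3a25 0.70, adjusted p = 0.129; Cyp2e1 0.33, adjusted p = 0.376). These genes belong to families of close paralogs.

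Among hepatokines, which the liver secretes as hormones, 3 of 21 genes rose and 5 fell, against 16.3% and 18.5% of all genes. Inhbe, which encodes activin E (chr10:127348857-127354411), lay at 126, 140 and 180.5 CPM in HF and at 12.9, 70.3 and 90.8 CPM in LF, with no overlap. It rose in both fits (1.30 ± 0.32, and 1.08 ± 0.19 without LF libraries 1 to 4, adjusted p = 0.0141). Of 21 genes of MHC and antigen presentation 3 rose and 2 fell, against the same shares of all genes. Tap1, which carries peptides into the endoplasmic reticulum (0.69 ± 0.16, and 0.85 ± 0.15), and its neighbour Psmb9, an immunoproteasome subunit (0.83 ± 0.21, and 0.98 ± 0.21), rose in both fits. The exons of Tap1 and Psmb9 overlap on opposite strands, so that their reads may not be told apart. H2-Q7, a nonclassical class I gene with close paralogs, fell in both fits (-0.70 ± 0.09 and -0.42 ± 0.09, adjusted p = 0.0264 without LF libraries 1 to 4).

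Of 23 cell cycle genes 12 rose and 0 fell (median 0.70), and without LF libraries 1 to 4 the median was 0.87 with 1 gene called, Cdk1 (2.28 ± 0.52, adjusted p = 0.0385). Cdk1, the mitotic kinase, lay at 1.14 to 2.2 CPM in HF and at 0.161 to 1.43 CPM in LF, and was not called over all libraries (0.95 ± 0.37, adjusted p = 0.0535), although DESeq2 (0.96, adjusted p = 0.0381) and limma voom (1.26, adjusted p = 0.0235) called it. LF values of Cdk1 reached below the 0.5 CPM of the table's filter, so that it could enter through the libraries where it was high. Its calls are therefore a description. E2f1, which drives entry into S phase, lay at 5.14 to 10 CPM in HF and at 3.12 to 4.13 CPM in LF, and rose (1.07 ± 0.18, adjusted p = 0.000442), with 0.99 ± 0.28 without LF libraries 1 to 4 (adjusted p = 0.0718). Cell cycle levels were low, and only 3 of the list rose where genes of a mean CPM of at least 5 alone were tested. Of 10 markers of B and plasma cells 5 rose (3 without HF library 1 or with limma voom), while their summed level spanned 11.5 to 63 CPM in HF and 13.4 to 52.5 CPM in LF. Of 10 stellate cell markers 5 rose (2 without any 1 of HF libraries 1 to 4, and 3 without LF library 2, 3 or 4 or in a fit of the 12 libraries alone), and their summed level was 366 to 598 CPM in HF and 261 to 501 CPM in LF. Over all genes 16.3% rose, which is the background for the counts of these lists with all libraries. Neither the B and plasma cell list nor the stellate cell list had a call without LF libraries 1 to 4. The part of either cell type in the other changes was not tested.

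Of the 276 genes called in the same direction in both fits, 142 rose and 134 fell. Sema5b, a semaphorin of axon guidance (chr16:35541145-35664732), lay at 5.88, 14.6 and 23.3 CPM in HF and at 0.351, 0.606 and 2.53 CPM in LF. No library overlapped, and the highest LF value was that of library 5. The other LF libraries held 0.351 to 0.725 CPM, near the 0.5 CPM of the table's filter. Sema5b could thus enter through the libraries where it was high, and its calls are a description. It rose by 3.94 ± 0.47 (adjusted p = 6.83e-05) and, without LF libraries 1 to 4, by 3.04 ± 0.65 (adjusted p = 0.0342). Gpat3, an acyltransferase at the start of triglyceride synthesis, lay at 4.49 to 15.8 CPM in HF and at 0.725 to 4.37 CPM in LF (2.19 ± 0.37, and 2.46 ± 0.55). Extl1, a glycosyltransferase of the exostosin family (chr4:134356372-134383850), lay at 21.6, 26 and 31.8 CPM in HF and at 5.43, 6.84 and 8.7 CPM in LF, again with no overlap (1.89 ± 0.15, adjusted p = 2.11e-06, and 1.63 ± 0.23, adjusted p = 0.00486). The other rises that the rule named were Tmem28, Tlr12, Blm, Slc39a4, Aatk, Acot11 and Paqr7, from 1.54 in Paqr7 to 2.45 in Tmem28 without LF libraries 1 to 4. Acot11 encodes an acyl-CoA thioesterase and Blm a DNA helicase. Slc39a4, a zinc importer, overlapped between the groups and missed the threshold without LF libraries 1 and 2 (0.94, adjusted p = 0.0514).

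Among falls in both fits, Lepr, the leptin receptor (chr4:101717404-101815352), lay at 1.85, 2.12 and 3.86 CPM in HF and at 25.4, 26.7, 5.97, 6.52, 16.8 and 17.3 CPM in LF libraries 1 to 6. The groups did not overlap, and LF libraries 3 and 4, which were high in Mt2, were the lowest of LF. The fall was -2.77 ± 0.37 (adjusted p = 0.00012) and -2.81 ± 0.28 without LF libraries 1 to 4 (adjusted p = 0.000817). HFLF libraries lay at 12.5 to 30 CPM, all above HF. Adcy1, an adenylyl cyclase (chr11:7063489-7178506), lay at 0.151, 0.31 and 0.376 CPM in HF and at 15.6, 29.7, 10.5, 13.9, 3.12 and 0.725 CPM in LF libraries 1 to 6, without overlap. Its fall was -5.37 ± 0.70 over all libraries, and -2.69 ± 0.49 without LF libraries 1 to 4 (adjusted p = 0.0141). Every HF value of Adcy1 lay under the 0.5 CPM of the table's filter, so that it could enter through the libraries where it was high. Its calls are therefore a description, and the size of its fall rests on values near the floor. Fabp5, a fatty acid binding protein (chr3:10012548-10016607), lay at 3.02, 8.06 and 18.8 CPM in HF and at 37.5, 130.5 and 208 CPM in LF, without overlap (-3.80 ± 0.57, and -2.65 ± 0.63, adjusted p = 0.047). Rasgef1b, an exchange factor of Ras-type proteins, lay at 9.63 to 13.1 CPM in HF and at 24.8 to 39.2 CPM in LF, and fell in both fits (-1.35 ± 0.13 and -1.17 ± 0.15). Crem, a cAMP-responsive modulator that overlaps a predicted gene, fell (-1.69 ± 0.21 and -1.09 ± 0.18), and so did Cd9, a tetraspanin (-1.44 ± 0.26 and -1.12 ± 0.27). The remaining falls that the rule named were Rpp40, Mbd1, Sgce and Slc35g1, and the call of Slc35g1 (-0.67 ± 0.21, adjusted p = 0.0213) ended without LF library 1, without LF libraries 1 and 2 and with limma voom.

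**Figure D5:**
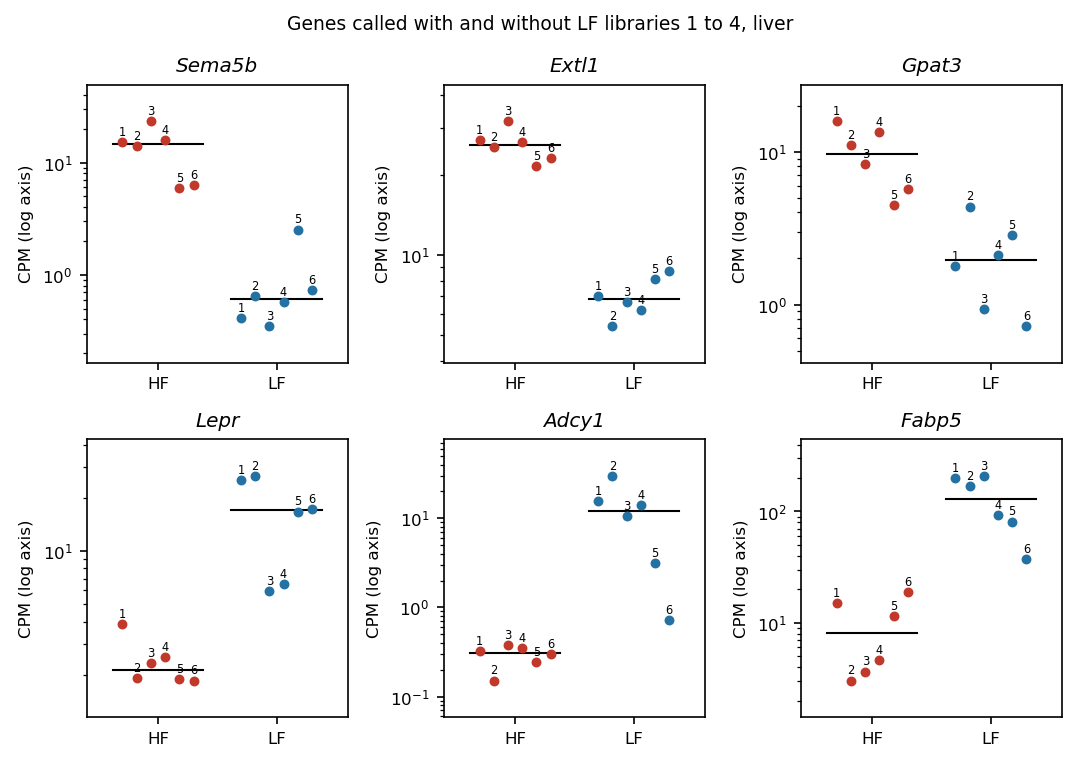
Levels in CPM on log axes for 3 genes that rose (Sema5b, Extl1, Gpat3) and 3 that fell (Lepr, Adcy1, Fabp5) in HF, with and without LF libraries 1 to 4, each point 1 library with its number and each line the median of 6. No HF library overlapped an LF library for any of the 6 genes.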

How the data were processed

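Gene counts of 18 liver libraries were used as deposited by the authors, who aligned reads with STAR to GRCm38.p6, per the submitters' processing notes. The counts hold genes left after the authors' CPM filter; each of the 14052 genes had a CPM above 0.5 in at least 6 libraries. No source used here gives the strand of counting. A second deposited liver table, named as RPKM, was not used: for 0 of 11903 genes with at least 10 counts in every library did it give the same implied gene length in all libraries (tolerance 5%). The check used unscaled library totals. A table computed with scaled totals could fail it too, so that the check does not show an error in that table.

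Counts were tested with edgeR 4.0.16 (R 4.3.3; TMM scaling, quasi-likelihood F-test, robust) in 1 fit of the HF, HFLF and LF libraries, with Benjamini-Hochberg adjustment over all 14052 genes and a threshold of 0.05. SEs are those of the log2 fold change. DESeq2 1.42.0 and limma 3.58.1 gave alternatives, and 14034 genes had a symbol and a position from the annotation tables. Gene totals were 11.7 to 23.3 M counts per library. On simulated counts with 200 changed genes, 49.3% of genes changed 1.5 times were called over all libraries and 16.4% without LF libraries 1 to 4. The spread of both simulated fits was that of all 18 liver libraries. Shared replicate numbers did not pair HF with LF libraries.

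The text names genes by a rule (the largest changes, the largest changes called in both fits, called list members of lowest p, and a set of acute-phase, clock and metabolic genes), which gave 211 genes. The members and lists were chosen with earlier results of these data known. Libraries of epididymal fat (eWAT) were used for a few values only.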

Additional observations from a re-analysis of the deposited data

Results flagged for a closer look

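Among 236 sets of 6 libraries (the library totals and 117 genes, HF and LF apart), 21 held a library whose gap to its nearest neighbour was, as a share of the whole range, above Dixon's critical value. Chance flags about 1 in 20 sets where values are normal and sets independent. Levels in CPM need not be normal and the genes share libraries, so that the count is not set against that share. The outlying library was the highest of its set each time. The outlying library was HF library 1 in 6 of them and LF library 5 in 6.

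HF library 1 was the high one for Scd1 (gap 0.731 of the range), Fasn (0.666), Lepr (0.673), Cd9 (0.685), Sgce (0.826) and S100a9 (0.687). Its Scd1 level was 16292 CPM, against 2431 to 6155 CPM in the other HF libraries. HF library 5 was high for Saa1 (0.751) and Saa2 (0.715), with 329.7 CPM of Saa1 against 38.3 to 111 CPM in the other HF libraries. HF library 2 was high for Nr1i3 (0.807), HF library 3 for Hspa1b (0.654) and HF library 4 for Cfd (0.636).

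LF library 5 was the high one for Cfd (0.921), Sema5b (0.828), Fitm1 (0.81), Nqo1 (0.711), Osbpl3 (0.671) and Cd36 (0.669). For Cfd, Cd36 and Fitm1 it lay above the lowest HF library (Cfd 4.52 CPM against 1.39 CPM), and for Sema5b below all of HF. LF library 1 was high for Fos (0.641), LF library 3 for C8b (0.659), LF library 4 for Mcm2 (0.718) and LF library 6 for Srebf1 (0.626).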

How the results depend on the processing

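Calls numbered 4891 over all libraries (2295 higher and 2596 lower in HF). Leaving out 1 library at a time gave 3786 to 5473 calls, with 1763 to 2593 higher and 2023 to 2880 lower. The counts moved by over 1.5 times in 2 settings: without LF libraries 1 to 4 (297 calls, 158 higher, 139 lower) and without LF libraries 1 and 2 (2742 calls, 1245 higher, 1497 lower). Fewer libraries were tested in both. With the replicate number as a block there were 4758 calls (2318 higher and 2440 lower); the correlations of same-numbered HF and LF libraries were -0.234 to 0.232, and 2 of the 6 numbers were matched best by their own number. Of the 111 called genes followed, 38 kept their direction and call without LF libraries 1 to 4, 60 kept the direction and lost the call, and 13 turned. The 13 had positive log2 fold changes there: Mt2 1.81, Mt1 2.19, Saa1 2.53, Saa2 2.8, Saa3 1.09, Lcn2 2.74, Cxcl1 0.75, Orm1 0.11, Hp 0.64, Steap4 0.02, Icam1 0.11, Nfkb2 0.16 and S100a9 0.56. Those libraries were set aside for their acute-phase genes, so that the turn of such genes follows in part from the choice of libraries. Other causes were not tested. The difference in mean library total, HF minus LF, was -2.31 M counts, and between -2.88 and -1.16 M with 1 library left out. At this depth, and with the spread of all 18 liver libraries, 49.3% of simulated 1.5-fold changes were called.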

Other observations

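Further lists gave these counts, to be read beside 16.3% of all genes higher and 18.5% lower. Of 9 metallothionein and zinc genes 6 fell and 1 rose, and without LF libraries 1 to 4, 1 rose and 0 fell. In the urea cycle and amino acid breakdown 8 of 30 genes rose and 3 fell (1 rose without LF libraries 1 and 2), and 7 of 20 clock genes rose and 4 fell, against 16.3% and 18.5% of all genes, with 0 of either list called without LF libraries 1 to 4. Among iron and heme genes 2 of 19 rose and 7 fell. Of 23 genes known to be male-biased in mouse liver 10 fell and 0 rose (6 fell without LF library 2, HF library 1 or HF library 3, each alone), and 1 fell without LF libraries 1 to 4. The summed level of that list was 5495, 5174, 9622.5, 11008, 17213 and 17339 CPM in HF libraries 1 to 6, and 12278 to 27623 CPM in LF. Of 28 interferon-induced genes 2 rose and 2 fell (7 rose without LF library 3), and of 23 genes of collagen and matrix 1 rose and 1 fell. Of 31 proteasome genes 6 fell (0 with upper-quartile scaling and 11 with DESeq2).

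Epididymal fat libraries with the same diet labels and replicate numbers gave values of some of the same genes, although the labels do not say that equal numbers are the same mouse. Mt2 lay at 38.9 to 147.5 CPM in HF fat, and at 124, 121, 33.9, 71.6, 48.9 and 10.4 CPM in LF fat libraries 1 to 6. Lcn2 lay at 4.37 to 33.3 CPM in HF fat, and at 6.52, 9.04, 13.5, 286, 164 and 3.14 CPM in LF fat libraries 1 to 6. Mt1 lay at 108 to 283 CPM in HF fat, and at 343, 338, 157, 237, 159.9 and 85.3 CPM in LF fat libraries 1 to 6. Cxcl1 lay at 1.22 to 3.78 CPM in HF fat, and at 5.11, 7.97, 2.09, 1.39, 1.32 and 1.59 CPM in LF fat libraries 1 to 6. Orm1 lay at 131.8, 107.7, 76.6, 51.0, 150.2 and 163.9 CPM in LF fat libraries 1 to 6. Orm2 lay at 1.35, 0.843, 0.571, 0.334, 2.03 and 2.13 CPM there. Saa3 lay at 31.5 to 109.4 CPM in HF fat, above all LF fat libraries (21.1, 2.53, 4.19, 4.01, 4.24 and 4.46 CPM). LF fat libraries 1 and 2 were thus the highest of LF for Mt1, Mt2 and Cxcl1, and LF fat libraries 4 and 5 for Lcn2. For Orm1 and Orm2, LF fat libraries 5 and 6 were the highest of LF, unlike the split in liver.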
